A study of Mus musculus with 4 samples.

Results

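The Ly6 and uPAR domain genes examined here are Ly6d, Lypd3, Ly6a, Ly6e, Ly6c1, Plaur, Slurp1 and Gpihbp1, 8 genes of 1 protein family, among 18193 genes on the array. Their probe sets were taken by gene symbol from an expression array of 45037 probe sets, read in sorted basal epidermal cells of mouse embryos. The platform annotation gave 6 of the 8 genes a probe set of their own, and Ly6c1 a probe set that it shares with Ly6c2. No probe set carried the symbol Ly6a in the annotation used here, so Ly6a was not analysed here. In all, 8 probe sets were followed, and 6 of them lay above the filter on dim probe sets, a signal of 65.9 (the antilog of the median over all probe sets of the mean log2 signal).

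The cKO group carried SRF fl/fl, ROSA26 YFP fl/fl and K14-Cre, so both copies of the Srf gene were floxed (2 arrays). The het group carried SRF fl/+ with the same YFP reporter and Cre, per the design text, which calls it WT (2 arrays, whose strain label reads only Rosa26). All embryos were at E16.5, and all carried the Cre, which the keratin 14 promoter drives in basal keratinocytes. Cells were sorted for α6 integrin and YFP. The sample titles carry a number that recurs in both groups. The arrays cKO_1210 and het_1210 are called the first pair here, and cKO_1261 and het_1261 the second pair. No label states what the numbers mark or whether embryos were pooled, so the spread between arrays may be partly technical. Sex-linked genes, given below, also differed between arrays. Serum response factor, the product of Srf, is a transcription factor of cytoskeletal and immediate early genes.

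Proteins of this family share a compact domain whose finger-like loops are held by disulfide bonds. Most are tethered to the outer cell surface by a glycosylphosphatidylinositol (GPI) anchor, and a few are secreted. In stratified epithelia several of them mark keratinocytes as they leave the basal layer. In RefSeq's mouse annotation Ly6d, Slurp1, Ly6e, Ly6a, Ly6c1 and Gpihbp1 lie on chromosome 15 among other family genes, with Lynx1 and Ly6g6g next to Ly6d. Lypd3 and Plaur lie on chromosome 7, Lypd3 next to Tex101, another family gene.

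RefSeq promoter windows, from 250 bases before to 50 after an annotated start, were at hand for 3 of the 8 genes, Lypd3, Plaur and Ly6c1. The windows of Lypd3 and Plaur are shown because these family genes lie on the same chromosome, and Lypd3 was lower in cKO while Plaur was not. Lypd3 spans chr7:24636320-24636619 and Plaur chr7:24462233-24462532 (GRCm38.p6, plus strand). Capitals mark matches to GGGCGG on either strand and to TGANTCA, with N any base. TGANTCA is a wider pattern that includes the AP-1 consensus, and it reads alike on both strands.
Lypd3: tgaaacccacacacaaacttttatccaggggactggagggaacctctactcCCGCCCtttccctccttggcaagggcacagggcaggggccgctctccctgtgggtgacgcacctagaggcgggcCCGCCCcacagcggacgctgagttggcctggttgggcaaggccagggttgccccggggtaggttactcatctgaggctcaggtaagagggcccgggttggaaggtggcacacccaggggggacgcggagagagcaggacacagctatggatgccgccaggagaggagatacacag
Plaur: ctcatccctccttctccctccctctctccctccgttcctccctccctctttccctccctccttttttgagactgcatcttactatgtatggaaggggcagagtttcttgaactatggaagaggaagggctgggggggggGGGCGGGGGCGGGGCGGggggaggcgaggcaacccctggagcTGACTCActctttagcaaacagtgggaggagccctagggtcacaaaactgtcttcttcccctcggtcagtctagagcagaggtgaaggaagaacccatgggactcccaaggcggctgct

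The Plaur window held 1 match to TGANTCA, 69 to 63 bases before the start, and 3 matches to GGGCGG, of which the last 2 share a base. The Lypd3 window held 2 matches to GGGCGG and 0 to TGANTCA. Of 32851 such mouse windows, 7.81% held TGANTCA and 35.7% held GGGCGG. The CArG box, the element that serum response factor binds, had 0 matches in the windows of Lypd3, Plaur and Ly6c1, and 1.63% of all windows held one. The window of Srf itself held 2. These are matches of letters in short windows and say nothing of what binds there or farther away.

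The targeted gene followed the labels. The brighter Srf probe set had signals of 47.9 and 80.4 on cKO_1210 and cKO_1261, against 834 and 1108 on het_1210 and het_1261. The deposited values are MAS5 signals on a linear scale, scaled so that the trimmed mean of each array was 500, and median signals ran from 63.8 to 82.7. The pairs also differed from each other technically: poly-A spike-in controls, added before labelling, were 2.52-fold higher in the first pair than in the second in cKO and 2.45-fold higher in het. Hybridization spike-in controls were also higher in the first pair, 1.74-fold in cKO and 1.82-fold in het. The Y-linked Eif2s3y had signals of 1386 and 3.01 in cKO and 1485 and 834 in het, and Xist, made from the inactive X chromosome, 115 and 22802 in cKO and 62.6 and 14338 in het, each with the first pair's array before the second's. The first pair thus had high Eif2s3y and low Xist, cKO_1261 the reverse, and het_1261 high signals of both. Sex-linked signal therefore differed between the pairs, and between cKO and het within the second pair. Of the 8 basal keratinocyte markers 0 passed the test described below, and Krt5 and Krt14 were among the brightest, with Krt5 at 35314 or more on every array. The spinous marker Krt10 was bright as well, at 24854 or more.

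Ly6d, Lypd3 and Gpihbp1 were lower in both cKO arrays than in both het arrays, while Ly6e and the probe set shared by Ly6c2 and Ly6c1 were little lower, and Plaur and Slurp1 were not lower. The 8 genes were put together with their cKO to het differences known, so these differences are a description and carry no test. All differences are cKO minus het on the scale log2(signal + 1), with the first pair's value before the second's, unless a mean of both is named.

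Ly6d encodes a GPI-anchored surface protein whose human counterpart, the E48 antigen, takes part in the adhesion of keratinocytes to each other. Its signal was 4612 and 3314 on cKO_1210 and cKO_1261, against 14316 and 5419 on het_1210 and het_1261. Both cKO arrays lay below both het arrays, and het_1210 stood well above the other 3. The signal averaged 3963 ± 918 in cKO and 9868 ± 6291 in het (SD, n = 2 each), and was 3.10-fold lower in cKO within the first pair and 1.64-fold lower within the second. The log2 differences were -1.63 and -0.71, with a mean of -1.17. This mean rests in part on 1 array: it was -0.47 without het_1210 and -1.87 without het_1261. Within the het group Ly6d was 2.64-fold higher in the first pair than in the second, and within cKO 1.39-fold.

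Lypd3 encodes C4.4A, a GPI-anchored protein of suprabasal keratinocytes that binds laminins. It had signals of 431 and 542 in cKO and 1089 and 936 in het, in the order first pair, second pair. The groups did not overlap, and the spread within each group was small beside the gap between them. Means were 486 ± 78.9 in cKO and 1012 ± 109 in het (SD, n = 2 each), with log2 differences of -1.34 and -0.79 and a mean of -1.06. The mean stayed between -1.23 and -0.90 when any 1 array was left out.

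Gpihbp1 encodes the protein that carries lipoprotein lipase across capillary endothelial cells and holds it at the vessel wall. Its signal was 45.2 and 37.8 in cKO, against 134 and 146 in het. Both cKO signals lay below the filter, in the range where MAS5 signals are noisy on a log scale, so the size of the difference is imprecise. Means were 41.5 ± 5.21 in cKO and 140.0 ± 8.37 in het (SD, n = 2 each). The log2 differences were -1.55 and -1.92, with a mean of -1.74.

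Ly6e encodes a GPI-anchored protein that interferon induces and that serves in mouse as the receptor of the fusion protein syncytin-A. Its brighter probe set had signals of 277 and 327 in cKO and 374 and 328 in het. The cKO arrays lay below the het arrays by almost nothing within the second pair, where the log2 difference was -0.002, against -0.43 within the first pair. Its dimmer probe set, below the filter on all arrays, ran the other way, with 45.2 and 50.8 in cKO and 4.02 and 29.1 in het. The probe sets of Ly6e therefore disagree in direction, and the one that could be measured above the filter showed a mean difference of -0.22.

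The probe set that the annotation gives to both Ly6c2 and Ly6c1, neighbouring genes whose products mark monocytes and some endothelial cells, cannot be assigned to either. It had signals of 150.4 and 229.8 in cKO and 232 and 237 in het. cKO_1210 was low and the other 3 arrays were alike, so the log2 differences were -0.62 and -0.04. Without cKO_1210 the mean difference was -0.03, against -0.33 with all arrays.

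Plaur encodes the urokinase receptor, which binds the protease urokinase at the cell surface. It had signals of 165 and 174 in cKO and 102.5 and 173 in het. Here het_1210 was low and the groups overlapped. The log2 differences were 0.68 and 0.01, with a mean of 0.35 that became -0.028 without het_1210.

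Slurp1 encodes a secreted member with no GPI anchor, a ligand of nicotinic acetylcholine receptors whose human gene is mutated in the skin disease mal de Meleda. Its signals, 18.2 and 60.5 in cKO and 17.3 and 19.1 in het, lay below the filter on all 4 arrays. Only cKO_1261 stood above the other 3. No fold is read from signals this dim, and without cKO_1261 the mean log2 difference was 0.003.

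**Figure D1:**
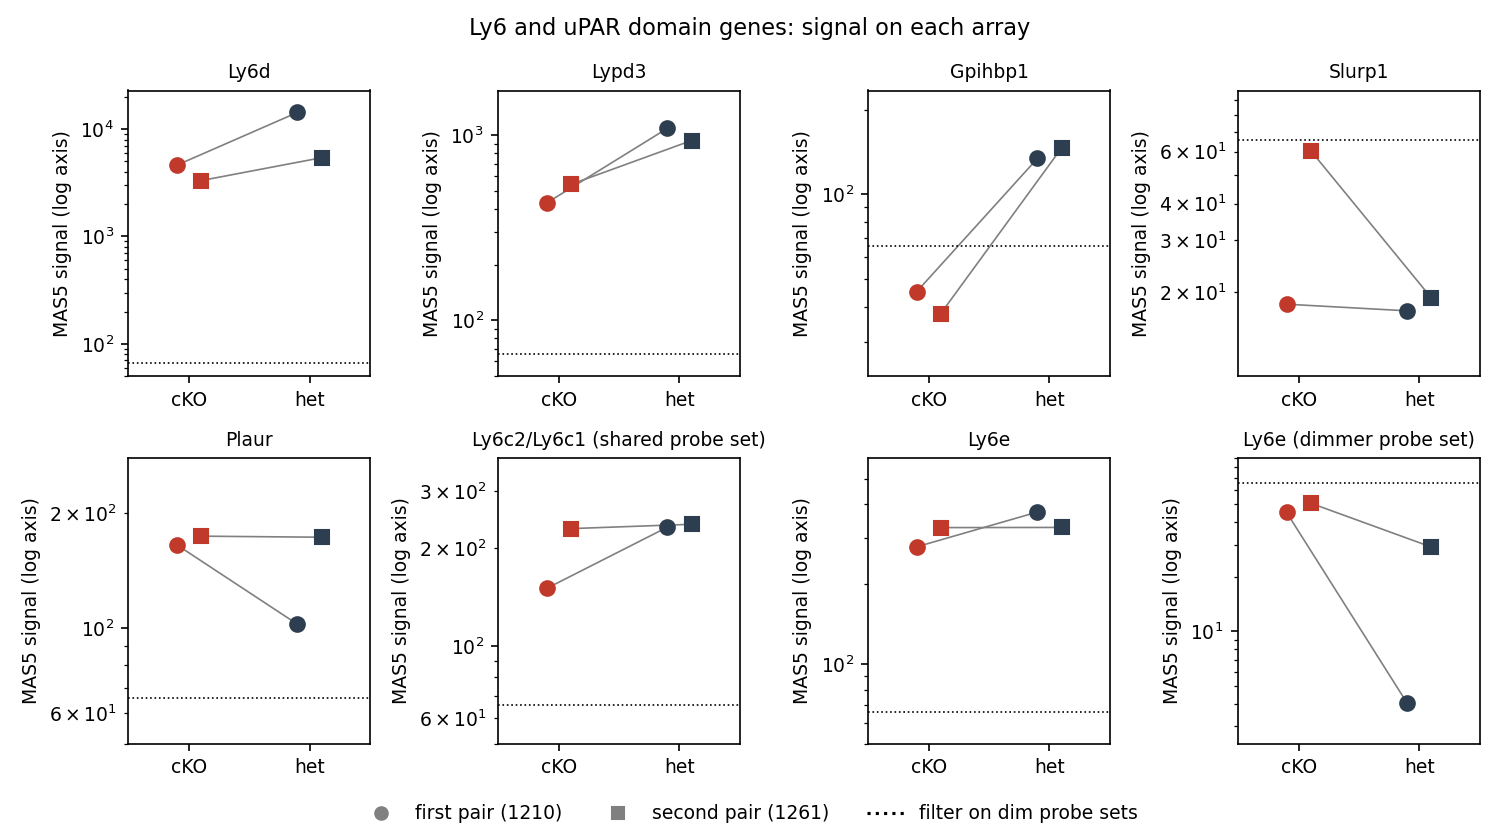
MAS5 signal (log axis) of each probe set of the listed genes on the 4 arrays, cKO on the left and het on the right. Circles are the first pair and squares the second, lines join the arrays of a pair, and the dotted line is the filter at a signal of 65.9; Ly6d, Lypd3 and Gpihbp1 slope up to het in both pairs.

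Of the 6 genes with a probe set of their own, 5 lay above the filter, Gpihbp1 through its het signals alone. Of the 6, 3 (Ly6d, Lypd3 and Gpihbp1) were lower in cKO by more than 1.5-fold within both pairs, which 1.58% of the 22518 tested probe sets were. For 4 of the 6, Ly6e included, both cKO arrays lay below both het arrays, as for 10.4% of the tested probe sets. For 0 of the 6 brightest probe sets both cKO arrays lay above both het arrays, against 7.91% of the tested probe sets. Nothing is read from these counts, since this contrast chose the genes. The median difference of the 6 genes was -0.64, Slurp1 included, and that of the 11055 tested genes was -0.02.

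**Figure D2:**
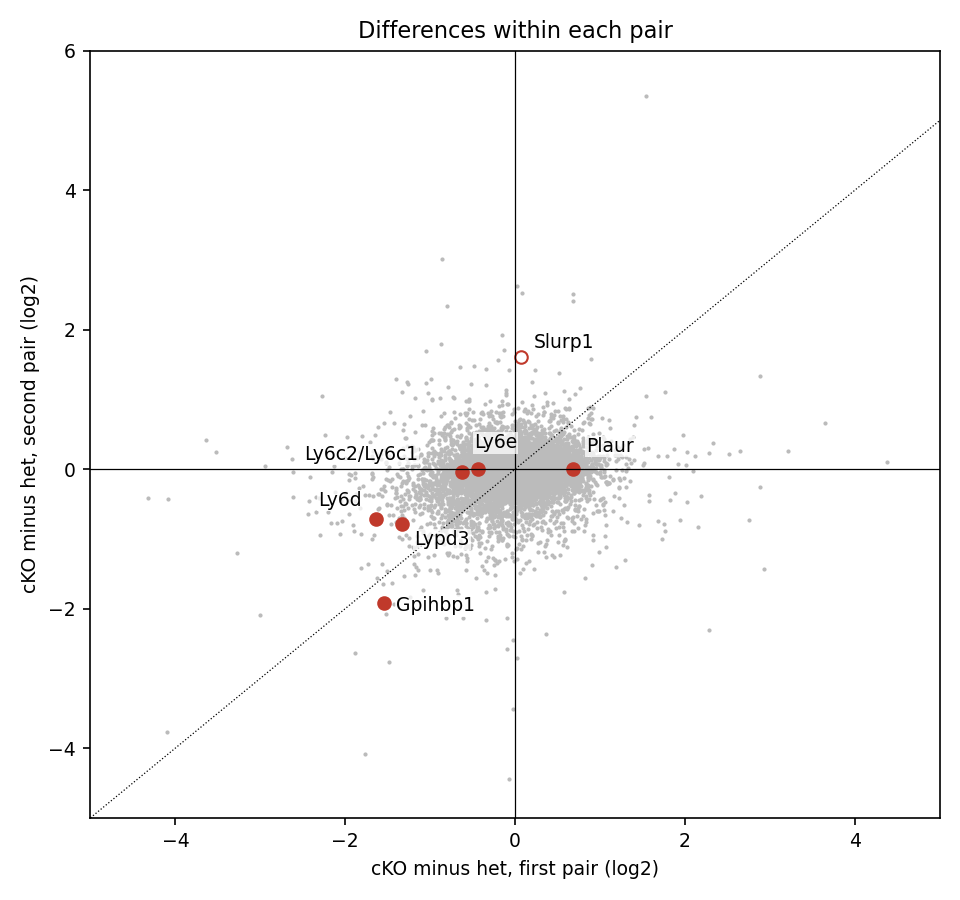
Difference between cKO and het on the log2 scale within the first pair (horizontal axis) and within the second (vertical axis). Grey points are the 11055 tested genes, red points the listed genes (Slurp1, below the filter, is open), and the dotted line marks equal differences; Ly6d, Lypd3 and Gpihbp1 lie in the lower left, and Ly6e, the shared probe set and Plaur lie near 0 within the second pair.

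The profile of Ly6d over the 4 arrays was most like those of Lhx2, a transcription factor of hair follicle progenitors, Klhl32 and Krt79, a keratin. Likeness was the Euclidean distance between gene-centred log2 signals over 4 arrays, among 11055 genes, and it was 0.040 for Lhx2, 0.282 for Klhl32 and 0.30 for Krt79. Lhx2 had signals of 254 and 184 in cKO and 807 and 310 in het, so like Ly6d it was highest on het_1210. The genes most like Lypd3 were Tmod4, a tropomodulin that caps actin filaments, at 0.021, Dnase1l2, a DNase of cornifying keratinocytes, at 0.109, and Gm6787, at 0.148. Dnase1l2 had dim signals of 47.7 and 57.1 in cKO and 111 and 95.6 in het. Tmod4 was dim in cKO too, with 69.1 and 87.4 against 176.5 and 148.8 in het, as was Gm6787, with 54.9 and 80.2 against 150.3 and 126.5. Klhl32 lay below the filter in cKO, at 60.05 and 47.01, against 167.4 and 81.4 in het. Krt79 had 231 and 144.5 in cKO and 661 and 204 in het, so unlike Ly6d its groups overlapped. With 4 arrays many genes share a profile, and these distances are a description.

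Other genes of the family were then read in the fit across all probe sets, limma on log2(signal + 1) with Benjamini-Hochberg adjustment. In that fit 0 of 22518 probe sets passed (108, or 0.48%, had an unadjusted p under 0.05), and with the title number as a block 194 passed (0.862%), 112 of them lower in cKO (0.497%). Without the block even the targeted gene Srf, at -3.93 for its brighter probe set, did not pass. A lack of calls without the block therefore says little about whether a gene differed. Of 41 other family genes listed, 27 had a probe set of their own and 7 lay above the filter. Of these 7, 6 were lower and 1 higher in cKO, with a median of -0.44 (-0.08 and -0.25 within the pairs). Of all tested genes 53.8% were lower on the mean. None of the 7 passed in limma, 0 with and 0 without the block, and 0 had an unadjusted p under 0.05 without the block. Since the members were picked from the family by their differences, the remaining genes are not a fair sample of it.

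Lypd1, a GPI-anchored modulator of nicotinic receptors in the brain, had signals of 32.1 and 67.0 in cKO and 121 and 91.9 in het (difference -1.17 ± 0.52, SE of the fit with the block, n = 2 each, limma adjusted p = 0.461). Its cKO signals lay below the filter or just above it, so Lypd1 passed the filter largely through its het signals. Ly6g6e had 153.5 and 162 in cKO and 535 and 192 in het (-1.02 ± 0.30, limma adjusted p = 0.108 with the block). Both had cKO arrays below het arrays, and Ly6g6e differed mainly through het_1210, with -1.80 and -0.25 within the pairs. The SE and p of the fit with the block rest mostly on variance shared across probe sets (34.4 prior against 1 residual degrees of freedom). They are therefore not a measure of a gene's own spread between the pairs. Lynx1, the neighbour of Ly6d and a GPI-anchored nicotinic receptor modulator, had signals of 107 and 102 in cKO and 236 and 120.1 in het. Cd59a, which blocks the complement membrane attack complex, had 521 and 350.5 in cKO and 550.1 and 610.4 in het. Lypd6b, the brightest of these probe sets, had 2519 and 2777 in cKO and 2666 and 2669 in het, so the groups overlapped. The last 3 were named after their values were seen.

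The partners of these proteins and the GPI anchor genes gave 1 call, Fabp4, with the block, and 0 without it, where 0 also had an unadjusted p under 0.05. In the lipoprotein lipase system, which Gpihbp1 serves, 7 of 7 tested genes were lower on the mean. Within both pairs 4 of the 7 were lower, as were 29.1% of tested probe sets. Of all tested genes 53.8% were lower on the mean. The median of the list was -0.28 (-0.76 and -0.35), and 1 of the 7 passed with the block. Fabp4, a fatty acid carrier of adipocytes and capillary endothelium, had signals of 222 and 1373 in cKO and 791 and 2024 in het. Its arrays overlapped between the groups. With the block it was lower by 1.19 ± 0.21 on the log2 scale (limma adjusted p = 0.00174). That SE is mostly shared across probe sets and is smaller than the gap between its own pairs (-1.83 and -0.56). Fabp4 did not pass without the block (adjusted p = 1) or with a robust prior (0.225). Lpl, the lipase that Gpihbp1 binds, had 225 and 397 in cKO and 299 and 313 in het, with differences of opposite sign within the pairs (-0.41 and 0.34). It was named as the ligand of Gpihbp1 and has the smallest mean difference of the list.

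In the urokinase system 0 of 7 tested genes passed in limma with or without the block. On the mean 6 were lower, as were 53.8% of all tested genes, and the median was -0.21. Plau, which encodes urokinase, had signals of 201 and 157 in cKO and 298 and 195 in het (-0.44 ± 0.28, limma adjusted p = 0.685 with the block). Itgav, the αv integrin chain, had 3227 and 3447 in cKO and 1956 and 3468 in het, so it resembled Plaur in that only het_1210 was low. Of 5 tested genes for Lypd3 partners and laminin-332 adhesion 0 passed, and the median was 0.13. Itgb4, the β4 integrin chain, had 3344 and 2742 in cKO and 2792 and 2348 in het, and Mmp14, a membrane-bound matrix metalloproteinase, 5222 and 3958 in cKO and 3978 and 4214 in het.

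Only 1 of 15 nicotinic receptor subunit genes, Chrna7, lay above the filter. Chrna7, the α7 subunit at which human SLURP-1 acts, had signals of 79.0 and 184.5 in cKO and 50.5 and 91.4 in het, with a difference of 0.82 ± 0.43 and a limma adjusted p of 0.589 with the block. The machinery that makes and attaches GPI anchors was near 0 as a list: 15 of 27 tested genes were lower and 12 higher, the median was -0.016 (-0.03 and -0.009), and 0 passed in limma. Among them Dpm3, a subunit of dolichol-phosphate mannose synthase, had 93.8 and 30.7 in cKO and 183 and 73.1 in het (-1.09 ± 0.47, limma adjusted p = 0.433 with the block). The cKO mean of Dpm3, 62.3, lay below the filter, so it passed the filter largely through its het signals. Pigb, a mannosyltransferase of the anchor, had 129 and 92.7 in cKO and 179 and 145 in het (-0.55 ± 0.35, limma adjusted p = 0.679).

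**Figure D3:**
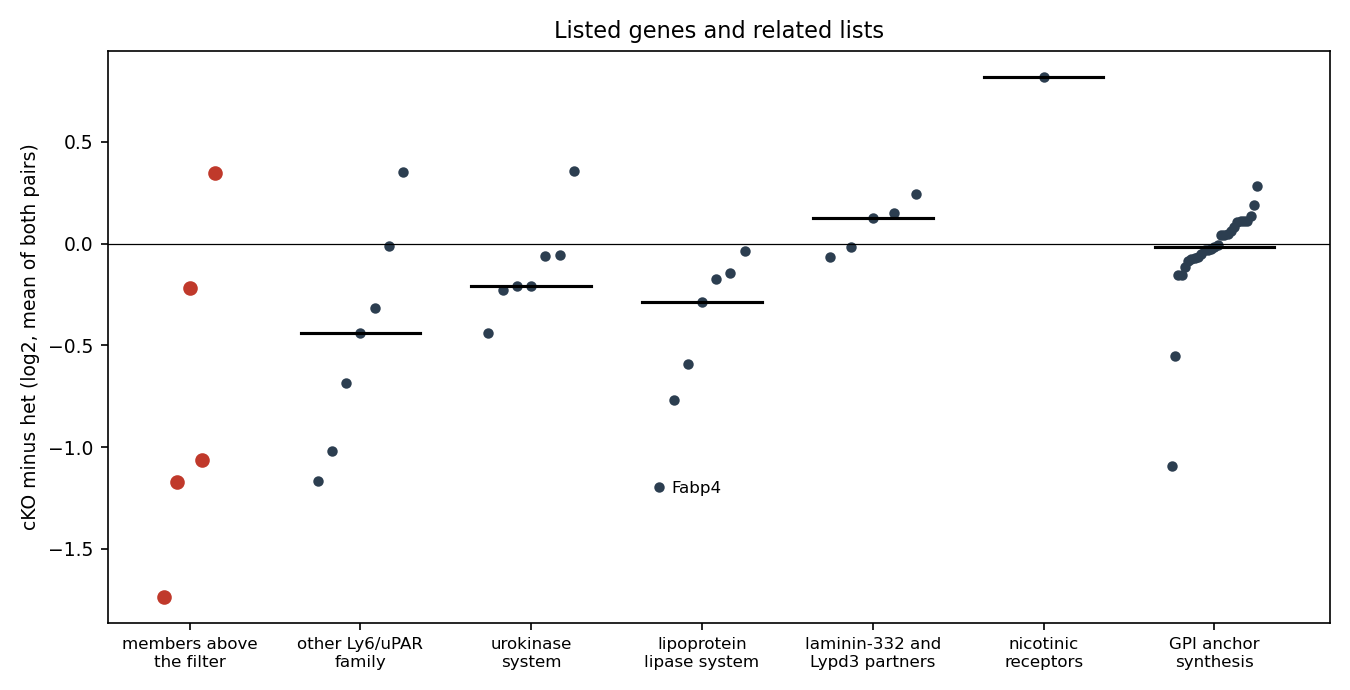
Mean of the cKO minus het differences of both pairs (log2) for the listed genes above the filter (red) and for tested genes of 6 related lists (dark), with the list median as a bar. Fabp4, at -1.19, is the list gene that passed in the fit with the block, and the GPI anchor genes centre on 0.

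Markers of other cell layers and cell types are set beside the members. In bulk samples, fewer cells of a type and less RNA per cell cannot be told apart. Beside Ly6d and Lypd3, which are known from suprabasal cells, 7 of 7 spinous markers were lower in cKO within both pairs, as 29.1% of tested probe sets were. Of these, 4 (Krt1, Krt10, Sbsn and Calm4) fell in limma with the block and 0 passed without it (1 with an unadjusted p under 0.05). The same 4 fell with the block and a robust prior, with limma adjusted p from 0.00413 (Krt10) to 0.0468 (Krt1). With the block but no variance trend 0 of all probe sets passed. The summed spinous signal was 75093 to 96163 in cKO and 95108 to 156876 in het, with cKO to het ratios of 0.613 within the first pair and 0.79 within the second pair. Of 8 tested granular and cornified markers 4 were lower and 4 higher, and the summed signal of all 10 on the array was 7836 to 9491 in cKO and 5787 to 14926 in het. Ly6d and Lypd3 were lower within both pairs. The granular sum was higher in cKO within the first pair and lower within the second pair, with ratios of 1.35 and 0.636. Lor weighs heavily in this sum, with 3418 and 5705 in cKO and 1063 and 9592 in het. The median difference of the 8 tested granular markers also changed sign, at 0.583 and -0.664. The part that a change in suprabasal content has in the Ly6d and Lypd3 differences was not tested.

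Beside Gpihbp1, 7 of 7 tested endothelial markers were lower on the mean, and 0 passed in limma. Of the 7, only 2 were lower within both pairs, near the 29.1% of all tested probe sets that were. Of all tested genes 53.8% were lower on the mean. The summed endothelial signal, over 10 genes, was 737 to 931 in cKO and 978 to 1295 in het, with ratios of 0.569 within the first pair and 0.952 within the second pair. Within the second pair 4 of the 7 tested markers (Kdr, Egfl7, Plvap and Esam) were higher in cKO, and the median was 0.032. Plvap, a protein of endothelial diaphragms, had signals of 40.8 and 109 in cKO and 147 and 91.4 in het, so the groups overlapped. Cdh5, the cadherin of endothelial junctions, had 51.9 and 73.2 in cKO and 89.2 and 91.8 in het, with both cKO arrays below both het arrays. The cKO mean of Cdh5, 62.5, lay below the filter, so it passed the filter largely through its het signals. Pecam1, a defining endothelial marker named after its values were seen, lay below the filter on all arrays, at 11.4 and 10.5 in cKO and 44.0 and 34.6 in het. The part of endothelial cells in the Gpihbp1 difference was not tested.

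Beside the probe set of Ly6c2 and Ly6c1, the 9 immune markers summed to 365 to 517 in cKO and 707 to 775 in het, and 2 were above the filter. Of these Laptm5 fell in limma with the block (-1.47 ± 0.36, adjusted p = 0.0367, and 0.0682 with a robust prior). Their part in the signal of that probe set was not tested. Of 10 dermal fibroblast markers 8 were lower on the mean, as were 53.8% of all tested genes, and 2 were higher. Within both pairs 8 were lower, as 29.1% of tested probe sets were, and 1 was higher. The fibroblast median was -0.63 (-0.97 and -0.21 within the pairs), close to the spinous median of -0.64 (-0.64 and -0.43). Of the 10, 3 (Vim, Col3a1 and Twist2) fell with the block, 0 passed without it and 0 with a robust prior. The fibroblast sum was 54509 to 55267 in cKO and 60156 to 67876 in het. The 6 melanocyte markers summed to 699.9 to 709.7 in cKO and 712 to 1294 in het, and the 7 periderm markers to 553 to 923 in cKO and 661 to 1077 in het, and 0 of either list passed. The 2 erythroid markers on the array, Hba-a1 and Alas2, lay below the filter. The basal sum was 147251 to 190967 in cKO and 152832 to 202875 in het, with ratios of 0.941 and 0.963. No marker was listed at 0.

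**Figure D4:**
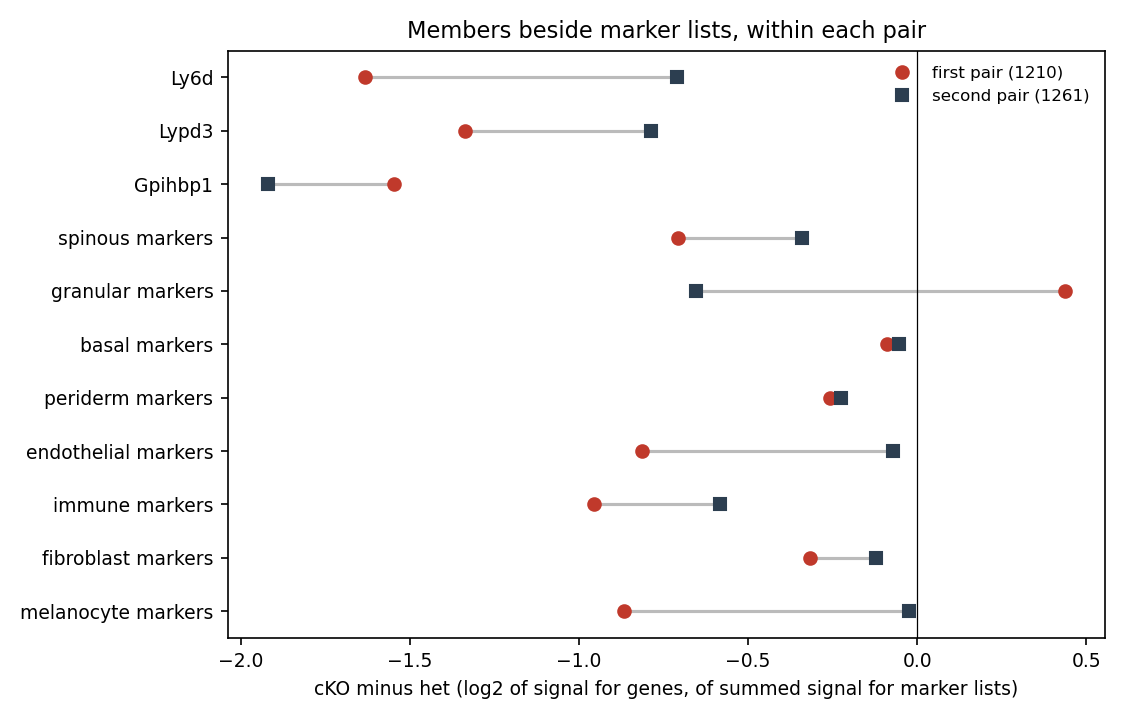
Differences between cKO and het on the log2 scale within the first pair (circles) and the second (squares), for the signals of Ly6d, Lypd3 and Gpihbp1 and for the summed signals of 8 marker lists. The spinous sum is lower within both pairs, the granular sum changes sign between them, and the endothelial sum is lower mainly within the first pair.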

How the data were processed

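Per the labels' protocols, RNA of the sorted cells was isolated with Trizol, then biotin-labelled with the 3 prime IVT express kit. The deposited intensity values are linear MAS5 signals made by the authors, 1 per probe set and array, per the submitters' processing notes; no version is given. Scaling to a common mean leaves only changes relative to it. With arrays, precision is limited by the sample number, here 2 per group.

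Of 45101 probe sets 64 controls were left out. Symbols came from the platform annotation, updated by Entrez identifier to RefSeq: 34945 probe sets had 1 symbol, 932 several and 9160 none. A gene was represented by its brightest probe set. Values were log2(signal + 1), and the 22518 probe sets above the median were tested. cKO and het were set against each other in limma 3.58.1 under R 4.3.3 (variance trend, two-sided, threshold 0.05), tested on simulated data. Fits used no block (2 residual degrees of freedom) or the title number as a block (1 residual and 34.4 prior degrees of freedom). Figures used matplotlib 3.10.9.

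The members and lists were chosen with earlier results of these data known. Named besides all member probe sets and Srf were list genes that passed with or without the block, otherwise the 2 tested genes per list with the largest difference, and the 3 nearest profiles of Ly6d and Lypd3. Outside this rule, with values seen, stand Lynx1, Cd59a, Lypd6b, Lpl, Pecam1, Kdr, Egfl7, Esam, Krt5, Krt14, Lor, Eif2s3y, Xist, Hba-a1 and Alas2. Apart from Lor, the granular, melanocyte and periderm markers are given by counts, sums and a median, without names.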

Additional observations from a re-analysis of the deposited data

How the results depend on the processing

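Without a block 0 probe sets passed, and with 1 array left out 0 to 5 did (5 without cKO_1210, 3 without cKO_1261). With the title number as a replicate block 194 passed, 84 with a robust prior, 0 without a variance trend, and, in alternatives chosen after seeing the data, 167 with median centring and 365 with quantile normalization; the cause was not tested. Deviations from the group means of arrays with the same number correlated at 0.755 over the tested probe sets, but no label says that same-numbered samples share a source, and there are only 2 pairs. Of the 54 tested genes of the family and partner lists, 1, Fabp4, passed with the block, also with median centring (1) and quantile normalization (1), and 0 with the robust prior or without the trend. Without the block 0 of the 54 passed with all arrays, with a pseudocount of 16 or with 1 array left out, with no filter 0 of 99 list genes did, and with a filter at a signal of 200, 0 of 44. Of the 6 members with a probe set of their own, 4 were lower in cKO under the block, the pseudocount of 16, both scalings and with 1 array left out, except 5 without het_1210. Directions turned for Ly6e with its dimmer probe set (1.99) and for Plaur without het_1210 (-0.028; its other leave-outs reached 0.72). Signals near background limit Gpihbp1, which was -1.44 with a pseudocount of 16, and Slurp1.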
